A study of Mus musculus with 6 samples.

Results

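The genes described here encode the nuclear subunits of the 5 respiratory chain complexes, from complex I to the ATP synthase, complex V. Every gene of the count table whose symbol follows the naming pattern of these subunits was taken, 84 of 49568 genes in all. Complex I had 36 such genes, complex II 4, complex III 9, complex IV 18 and complex V 17. The choice used symbols alone and no measured value, but it was made with earlier results of these data known. The low-count filter of edgeR left 78 of the 84 for testing, with all 6 that it removed in complex IV.

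RNA was sequenced from MC/9 cells, a mouse mast cell line, in 2 groups of 3 libraries. The rPTH group came from MC/9 cells grown together with 7F2 cells, a mouse osteoblast line, and exposed to rPTH at 10 nM for 24 h before the mast cells were collected. The control group is labelled as untreated, and the sources used here do not state whether its mast cells also grew on osteoblasts. The labels do not expand the name rPTH, which was taken as a form of parathyroid hormone. No label says that replicates were separate cultures, so the p-values below measure the spread between these libraries, which may be technical.

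Total counts were 30623648, 32953708 and 33577977 in rPTH 1, 2 and 3, against 24387242, 24993606 and 22282095 in control 1, 2 and 3. A count of 0 allows up to 3 counts, which is 0.0893 to 0.135 CPM, the count scaled by the library's total, and this limit covers counting error only. All 12 mast cell markers examined were detected, and their summed level was 6417 to 8319 CPM with rPTH, against 7949 to 9660 CPM in controls. Control 1 stood apart from the other libraries: its TMM scaling factor was 0.8103, while the other 5 lay between 1.03 and 1.063. Values below are CPM scaled by these factors unless said otherwise, and each result is also given without control 1 where that library changes it.

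The respiratory chain sits in the inner mitochondrial membrane. Complex I takes electrons from NADH and complex II takes them from succinate, complex III passes them through cytochrome c to complex IV, and complex IV reduces oxygen. Complexes I, III and IV pump protons, and complex V uses the proton gradient to make ATP. Each complex except II combines subunits encoded in the nucleus with a few encoded in mitochondrial DNA. In mast cells, mitochondrial ATP production has been linked to degranulation.

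No subunit gene passed the test. With edgeR's quasi-likelihood test and Benjamini-Hochberg adjustment, 0 of 78 had an adjusted p under 0.05, beside 0 of 16696 genes tested (0%). Their adjusted p-values ran from 0.62 to 0.982. DESeq2 at its default settings and limma-voom also called 0 of them. At an unadjusted p under 0.05 the edgeR count was 0 lower and 0 higher, while 5.89% of all tested genes were lower and 1.98% higher with rPTH at that level.

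The direction was nevertheless shared by most of them. The log2 fold change, rPTH over control, was below 0 for 75 of 78 subunit genes, beside 58.5% of all tested genes. Its median was -0.60 for the subunit genes and -0.09 for all tested genes. The exceptions were Ndufs1 at 0.01, Uqcrc2 at 0.03 and Atp5s at 0.18. With library totals in place of TMM factors the median of all tested genes moved to 0.04 and that of the subunit genes to -0.39, which is 0.44 below all genes, and Sdha joined the exceptions at 0.09. In bulk RNA such as this, fewer cells of a type and less RNA per cell cannot be told apart.

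That direction rested on control 1. Control 1 had the highest level of the 6 libraries for 77 of 78 subunit genes, beside 39.3% of all tested genes, and Uqcrc2 was the exception. Its level exceeded the mean of control 2 and control 3 by a ratio of 1.11 to 3.56, with a median of 2.54. The coefficient of variation over 3 libraries had a median of 8.32% with rPTH and 58.8% in controls, and it was larger in controls for 77 of 78 genes. The groups did not overlap for 2 genes, Ndufs7 and Cox5b, both lower with rPTH, beside 8.45% of tested genes. No subunit gene lay wholly above the controls, beside 8.35% of tested genes. Against control 2 and control 3 alone the same 2 genes were wholly lower, beside 14.6% of tested genes, and Ndufs1, Ndufv2, Cox7b and Atp5s were wholly higher, beside 16.1%. In a fit without control 1 the median log2 fold change of the subunit genes was -0.03, that of all tested genes was -0.04, and 45 of 78 subunit genes were below 0, beside 56.6% of tested genes. In fits that kept control 1, 27 subunit genes were lower at an unadjusted p under 0.05 without control 3, beside 5.7% of tested genes, and 2 without control 2, beside 10.8%, while 0 passed after adjustment with edgeR.

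**Figure D1:**
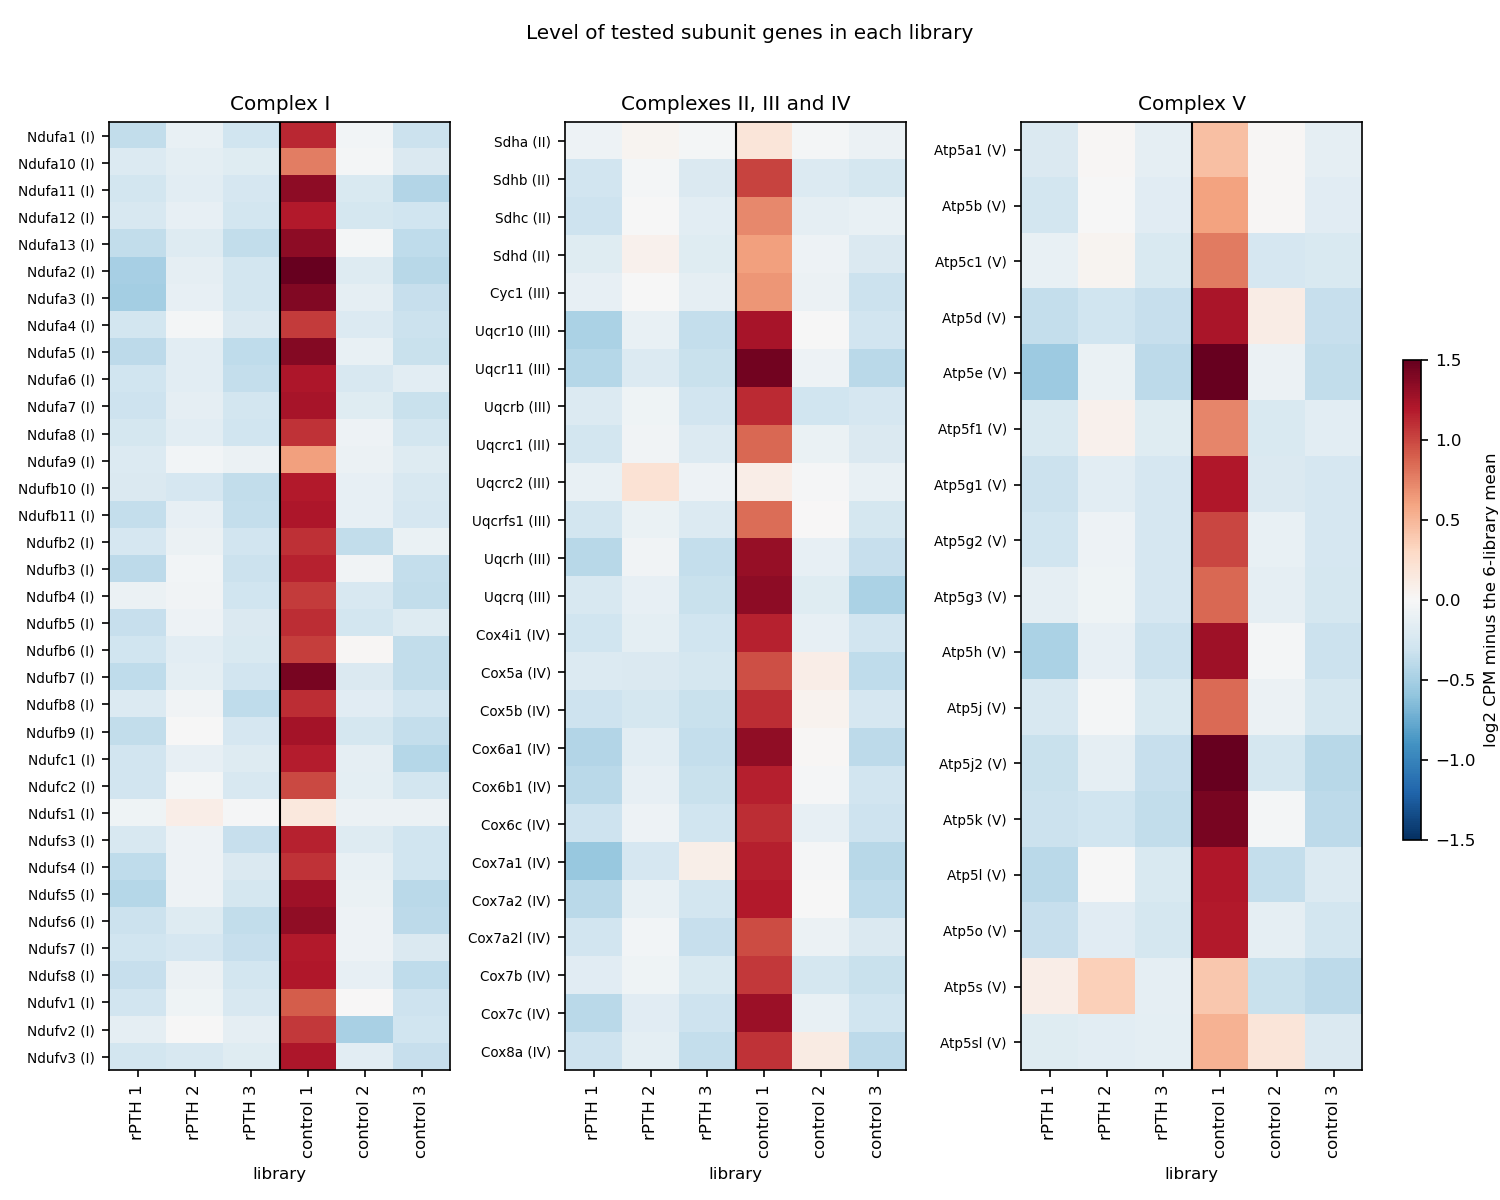
Level of 77 of the 78 tested subunit genes (rows, complex in brackets) in each library (columns, rPTH left of control), as log2 CPM minus the gene's mean over the 6 libraries, with red above and blue below that mean. The control 1 column is red in nearly every row, and the other 5 columns have medians between -0.30 and -0.10.

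The summed level of all 84 genes was 8514, 9898 and 8795 CPM in rPTH 1, 2 and 3, against 19912, 9773 and 8688 CPM in control 1, 2 and 3. The 3 rPTH sums lay around those of control 2 and control 3, and control 1 lay far above all 5. The ratio of the rPTH mean to the control mean was 0.709 with all controls and 0.983 with control 2 and control 3 alone. Complex V made up the largest share of the sum in every library, 47.3% to 47.9% with rPTH and 43.1% to 48.3% in controls. Complex IV held 14.3% to 14.5% of the sum with rPTH, against 17.4% in control 1, 15.4% in control 2 and 14.4% in control 3. Complex II held 5.70% to 5.78% with rPTH, against 4.08%, 5.32% and 5.72% in control 1, 2 and 3. Shares within this sum do not depend on the scaling.

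**Figure D2:**
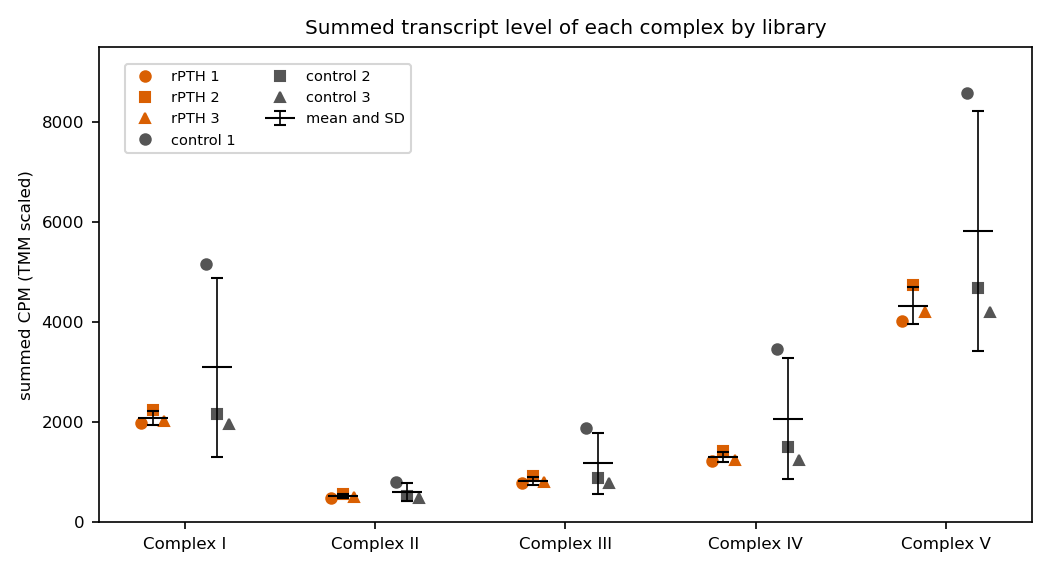
Summed CPM of the subunit genes of each complex by library, rPTH (orange) left of control (grey), with the mean and SD of 3 libraries in black. For complex I the rPTH libraries lie at 1982 to 2252 CPM and the controls at 5167, 2174 and 1962 CPM, and for each complex control 1 is the highest point.

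As a description, the sequence before the start site is shown for 1 gene of each complex. The part of promoters in the levels was not tested. The promoters, from 250 bases before to 50 bases after the start, come from RefSeq on build GRCm38.p6, where 75 promoters of 69 of the genes were found. These 5 were picked, after the motif search, because each holds letters of at least 1 factor known for respiratory chain genes. They are therefore not typical of the 75, and other promoters, such as that of Ndufa4, hold none of the letters marked. Capitals mark GCATGCGC, the core bound by NRF1, CCGGAAG, bound by ETS factors such as GABP (also called NRF2), and AAGATGGCG, bound by YY1, on either strand. A run of capitals longer than these is a pair of overlapping matches on opposite strands. The first is the core complex I subunit Ndufs7, then follow Sdhb of complex II, Uqcr11 of complex III, Cox6a1 of complex IV and Atp5k of complex V.
Ndufs7, chr10:80249199-80249498, plus strand: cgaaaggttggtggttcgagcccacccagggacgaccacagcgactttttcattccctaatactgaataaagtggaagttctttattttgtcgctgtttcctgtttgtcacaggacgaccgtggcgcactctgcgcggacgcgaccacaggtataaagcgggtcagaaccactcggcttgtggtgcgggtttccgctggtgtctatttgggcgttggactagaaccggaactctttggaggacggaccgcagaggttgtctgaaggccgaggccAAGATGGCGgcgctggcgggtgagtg
Sdhb, chr4:140961021-140961320, plus strand: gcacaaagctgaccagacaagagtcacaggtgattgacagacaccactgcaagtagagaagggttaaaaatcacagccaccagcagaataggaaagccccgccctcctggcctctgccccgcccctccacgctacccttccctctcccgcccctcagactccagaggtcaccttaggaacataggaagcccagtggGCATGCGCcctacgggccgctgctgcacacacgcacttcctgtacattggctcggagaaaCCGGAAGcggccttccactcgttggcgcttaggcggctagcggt
Uqcr11, chr10:80406772-80407071, minus strand: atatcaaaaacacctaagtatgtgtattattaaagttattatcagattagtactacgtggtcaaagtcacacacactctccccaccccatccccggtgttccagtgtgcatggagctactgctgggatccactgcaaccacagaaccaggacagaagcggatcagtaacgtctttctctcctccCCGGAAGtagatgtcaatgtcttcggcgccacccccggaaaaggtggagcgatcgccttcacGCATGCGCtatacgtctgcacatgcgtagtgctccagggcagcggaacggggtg
Cox6a1, chr5:115348909-115349208, minus strand: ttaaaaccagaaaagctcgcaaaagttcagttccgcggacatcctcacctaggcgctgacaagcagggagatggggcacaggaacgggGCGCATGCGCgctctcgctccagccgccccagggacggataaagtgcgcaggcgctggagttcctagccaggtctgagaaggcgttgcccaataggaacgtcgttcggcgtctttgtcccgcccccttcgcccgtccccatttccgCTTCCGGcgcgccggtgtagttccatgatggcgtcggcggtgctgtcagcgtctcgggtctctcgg
Atp5k, chr5:108434350-108434649, minus strand: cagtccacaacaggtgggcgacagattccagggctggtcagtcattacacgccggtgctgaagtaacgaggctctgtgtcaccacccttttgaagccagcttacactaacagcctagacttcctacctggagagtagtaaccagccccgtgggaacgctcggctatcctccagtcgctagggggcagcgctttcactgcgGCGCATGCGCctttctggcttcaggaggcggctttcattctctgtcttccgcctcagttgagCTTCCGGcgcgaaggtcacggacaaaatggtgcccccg

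Ndufs7 holds the YY1 letters, while the other promoters shown hold both NRF1 and ETS letters. Over all 75 promoters, the NRF1 core was present in 13.3%, beside 2.71% of the 32851 promoters in the table. The ETS motif was present in 21.3% beside 8.86%, and the YY1 motif in 12% beside 1.4%. The CCAAT box, letters CCAAT, was present in 42.7% beside 37.4%, and the SP1 box, letters GGGCGG, in 38.7% beside 35.7%. Both strands were searched for each, and no motif's match is a measured binding site. The median GC content was 57.3% for promoters of the subunit genes and 52.7% for all promoters.

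Some factors that bind these letters, NRF1, GABP and YY1, were measured as transcripts too, within a wider list of regulators. No factor for the CCAAT or SP1 box was listed. Of 12 listed regulators of respiratory chain genes, 12 were tested and 0 had an adjusted p under 0.05 with edgeR, 0 also at an unadjusted p under 0.05. Their median log2 fold change was 0.01 and 6 were below 0. Nrf1 had 48.0, 52.7 and 48.4 CPM with rPTH, against 57.1, 51.1 and 48.2 CPM in controls. Gabpa, the DNA-binding subunit of GABP, had 105, 102 and 96.8 CPM with rPTH, against 53.0, 85.0 and 97.4 CPM in controls, with control 1 the lowest of the 6. Its log2 fold change was 0.37 ± 0.24 (SE) and 0.14 without control 1. Gabpb1, also listed, was highest in control 1, at 43.1 CPM against 34.6 to 36.9 CPM in the other libraries. Gabpb2 was lowest there, at 37.2 CPM against 102 to 113 CPM. Yy1 had 57.4, 54.5 and 53.1 CPM with rPTH, against 42.7, 58.7 and 53.7 CPM in controls. Ppargc1a, the coactivator PGC-1alpha, was near the detection limit at 0.308 to 0.729 CPM with rPTH, against 0.101 to 0.734 CPM in controls.

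Complex I oxidises NADH, and 7 of its nuclear subunits form the catalytic core, among them the flavoprotein Ndufv1 and the iron-sulphur proteins Ndufs1, Ndufs7 and Ndufs8. Over the 36 genes the median log2 fold change was -0.62, with 35 below 0, and it was 0.00 without control 1, with 17 below 0. The core genes had a median of -0.49 and the 29 other subunit genes one of -0.65, and without control 1 the medians were 0.01 and -0.00. Ndufs7, on chromosome 10 at 80249121 to 80256794 of GRCm38, had 39.8, 41.0 and 38.5 CPM with rPTH, against 111, 46.2 and 41.9 CPM in controls. All 3 rPTH libraries lay below all 3 controls, by a small margin to control 3. The log2 fold change was -0.74 ± 0.38 (SE; edgeR adjusted p = 0.628), and -0.16 ± 0.08 without control 1 (edgeR adjusted p = 0.442).

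Ndufs1, the largest core subunit, had 90.9, 102 and 93.7 CPM with rPTH, against 106, 89.5 and 89.1 CPM in controls. Its control 1 value was only 1.19 times the mean of the other controls, the smallest such ratio in complex I. Ndufv2 had 87.0, 95.2 and 87.2 CPM with rPTH, against 200, 68.0 and 77.4 CPM in controls. The rPTH values therefore lay between control 1 and the other controls. Its log2 fold change was -0.36 ± 0.41 with all libraries and 0.29 ± 0.09 without control 1, where the unadjusted p was 0.0145 and the edgeR adjusted p 0.4. Ndufv2 was the 1 subunit gene at an unadjusted p under 0.05 in that fit, in which 4.46% of tested genes were higher and 7.95% lower at that level.

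Other core genes had wide controls. Ndufs3 had 51.2, 57.4 and 47.4 CPM with rPTH, against 134, 53.0 and 49.2 CPM in controls. Ndufs8 had 43.3, 51.9 and 45.6 CPM with rPTH, against 127, 50.6 and 42.3 CPM in controls. In both the rPTH libraries overlapped control 2 and control 3, as they did for Ndufv1, which carries the NADH site. Ndufv1 had 77.7, 90.6 and 80.3 CPM with rPTH, against 178, 95.1 and 76.6 CPM in controls. Among the non-core genes Ndufa2 had the largest ratio of control 1 to the other controls in complex I, 3.55, with 45.7, 58.8 and 53.2 CPM with rPTH, against 185, 56.2 and 48.3 CPM in controls. Ndufa4, which is now assigned to complex IV despite its name, had 135, 160 and 140 CPM with rPTH, against 337, 142 and 131 CPM in controls.

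Complex II, succinate dehydrogenase, also works in the TCA cycle and has only nuclear subunits. Its 4 genes had a median log2 fold change of -0.31, the median closest to 0 of the 5 complexes with all libraries. Without control 1 it was 0.03, and complexes I and III were closer to 0. The difference between complexes was not tested. Sdha, the flavoprotein that oxidises succinate, had 211, 230 and 219 CPM with rPTH, against 253, 219 and 210 CPM in controls. Its log2 fold change was -0.05 ± 0.16 (SE; edgeR adjusted p = 0.9), and it was above 0 with DESeq2 size factors (0.01) and with library totals (0.09). The iron-sulphur subunit Sdhb, on chromosome 4 at 140961203 to 140979193 of GRCm38, had 81.0, 96.5 and 84.9 CPM with rPTH, against 199, 85.8 and 82.4 CPM in controls. Sdhc and Sdhd anchor the enzyme in the membrane. Sdhc had 65.0, 79.8 and 72.3 CPM with rPTH, against 132, 73.5 and 74.3 CPM in controls. Sdhd had 132, 157 and 132 CPM with rPTH, against 230, 142 and 129 CPM in controls. In all 4 genes control 1 was the highest library, by a ratio to the other controls of 1.18 for Sdha and up to 2.36.

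Complex III carries electrons from ubiquinol to cytochrome c. Of its 9 genes 8 had a log2 fold change below 0, with a median of -0.53, and -0.02 without control 1. The catalytic subunits are cytochrome c1, encoded by Cyc1, and the Rieske iron-sulphur protein, encoded by Uqcrfs1. Cyc1 had 115, 124 and 114 CPM with rPTH, against 198, 117 and 100 CPM in controls. Uqcrfs1 had 65.3, 74.0 and 69.0 CPM with rPTH, against 142, 79.7 and 66.0 CPM in controls. Uqcrc1 and Uqcrc2 are the large core proteins on the matrix side. Uqcrc1 had 144, 169 and 152 CPM with rPTH, against 317, 163 and 150 CPM in controls. Uqcrc2, on chromosome 7 at 120635176 to 120659524 of GRCm38, had 106, 133 and 108 CPM with rPTH, against 122, 113 and 106 CPM in controls. It was the 1 subunit gene with its highest level outside control 1, in rPTH 2, and its log2 fold change was -0.09 without rPTH 2.

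The small accessory subunits of complex III had a median log2 fold change of -0.74 over 5 genes, against -0.34 over the 4 core genes, and without control 1 the medians were -0.05 and 0.02. Uqcr10, the smallest p of the complex, had 58.8, 75.7 and 63.7 CPM with rPTH, against 193, 81.6 and 67.0 CPM in controls. Its rPTH 2 value lay between control 2 and control 3, so the groups overlapped. The log2 fold change was -0.79 ± 0.40 (SE; edgeR adjusted p = 0.628), and -0.18 without control 1. Uqcr11, whose promoter is shown above, had 62.0, 71.8 and 65.8 CPM with rPTH, against 226, 78.9 and 62.9 CPM in controls.

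Complex IV, cytochrome c oxidase, has its catalytic centres in mitochondrially encoded subunits, and the nuclear ones surround them. All 12 tested genes had a log2 fold change below 0, with a median of -0.66, and 11 were below 0 without control 1, with a median of -0.10. Cox4i1 had 210, 235 and 210 CPM with rPTH, against 579, 238 and 213 CPM in controls. Cox5a had 40.0, 39.8 and 38.5 CPM with rPTH, against 90.5, 49.7 and 35.6 CPM in controls. The rPTH levels of Cox5a lay inside the range of the controls, while rPTH 1 and rPTH 3 lay just below the lowest control for Cox4i1. Cox5b, on chromosome 1 at 36691449 to 36693681 of GRCm38, had 88.1, 91.3 and 86.8 CPM with rPTH, against 236, 113 and 91.6 CPM in controls. The groups did not overlap, although rPTH 2 and control 3 nearly met. Its log2 fold change was -0.73 ± 0.35 (SE; edgeR adjusted p = 0.625), and -0.22 without control 1. Cox7a2l, which joins complexes III and IV in supercomplexes and is no regular subunit, had 118, 140 and 114 CPM with rPTH, against 285, 136 and 124 CPM in controls.

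Several complex IV subunits exist as a ubiquitous and a muscle, heart, lung or testis form, and these cells expressed the ubiquitous ones. Cox4i2, Cox6b2, Cox7b2, Cox8b and Cox8c had at most 2 counts in any library, below the limit of 3 counts that a count of 0 allows. Cox6a2, the heart and muscle form, had 5, 3 and 4 counts with rPTH, against 6, 7 and 13 counts in controls. The 6 muscle and heart markers examined summed to 6.44 to 8.02 CPM with rPTH, against 7.89, 9.13 and 22.5 CPM in control 1, 2 and 3. Among them Acta1 had 4.54 to 5.67 CPM with rPTH, against 5.31, 6.23 and 18.0 CPM in controls. Tnnt2 lay the other way, with 0.302 CPM in control 3 against 1.01 and 1.04 CPM in control 1 and 2. The part of these markers in the Cox6a2 counts was not tested. The 5 testis markers examined summed to at most 0.38 CPM with rPTH and 0.557 CPM in controls. Cox7a1 was the 1 tissue-restricted form that passed the filter. It had 1.55, 1.94 and 2.44 CPM with rPTH, against 5.16, 2.28 and 1.73 CPM in controls.

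Shares within an isoform group, computed per length of merged exons, do not depend on the scaling. Cox7a1 made up 3.12% ± 0.647 of Cox7a with rPTH and 2.99% ± 0.0305 in controls (SD, n = 3 each; exact two-sided permutation p = 1), and Cox7a2 the rest. The 3 genes Atp5g1, Atp5g2 and Atp5g3 encode the same mature c-ring protein of ATP synthase with different import sequences. Atp5g1 held 9.56%, 9.74% and 10.2% with rPTH, against 12.1%, 9.63% and 10.3% in controls. Atp5g2 held 41.7%, 44.0% and 43.8% with rPTH, against 45.2%, 44.8% and 44.1% in controls. Atp5g3 held 48.7%, 46.2% and 46.0% with rPTH, against 42.7%, 45.6% and 45.6% in controls. The groups did not overlap for Atp5g2, lower with rPTH, and Atp5g3, higher with rPTH, and the exact permutation p was 0.1 for both, the smallest that 3 against 3 libraries allow, or 0.2 adjusted over the 4 shares tested. The differences were -1.51 percentage points for Atp5g2 and 2.34 for Atp5g3, and against control 2 and control 3 they were -1.25 and 1.38. Without rPTH 1 the difference for Atp5g2 was -0.775. The 5 pseudogenes similar to Atp5g1 had 43.5% as many counts as the gene, which makes its share uncertain.

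Complex V had 16 of 17 genes below 0, with a median log2 fold change of -0.53, and 11 below 0 without control 1, with a median of -0.04. The catalytic head is made of alpha and beta subunits, encoded by Atp5a1 and Atp5b, around the central stalk of Atp5c1, Atp5d and Atp5e. Atp5b had 1469, 1766 and 1580 CPM with rPTH, against 2702, 1791 and 1574 CPM in controls. Atp5a1 had 699, 822 and 736 CPM with rPTH, against 1106, 819 and 735 CPM in controls. The rPTH libraries spanned control 2 and control 3 for Atp5a1, and for Atp5b they spanned control 3 and stayed just below control 2. Atp5c1 had 203, 225 and 186 CPM with rPTH, against 376, 183 and 187 CPM in controls. Atp5d, on chromosome 10 at 80138632 to 80145818 of GRCm38, had 115, 119 and 116 CPM with rPTH, against 343, 159 and 116 CPM in controls. Its log2 fold change of -0.82 ± 0.39 (SE; edgeR adjusted p = 0.62) had the smallest unadjusted p of all 78 genes, 0.0739, and was -0.24 without control 1. Atp5e had 79.1, 108 and 87.9 CPM with rPTH, against 325, 109 and 89.5 CPM in controls, with a log2 fold change of -0.93, the most negative of the 78 with all libraries, and -0.13 without control 1.

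The rest of the synthase is a peripheral stalk, a ring of c subunits and small membrane subunits. The 4 peripheral stalk genes had a median log2 fold change of -0.55, and -0.04 without control 1. Among them Atp5o, which joins the stalk to the head, had 216, 245 and 228 CPM with rPTH, against 628, 250 and 227 CPM in controls. The 3 c-ring genes had a median of -0.53, and the 3 small membrane subunit genes Atp5j2, Atp5k and Atp5l one of -0.82, and without control 1 the medians were -0.01 and 0.06. Atp5k had 41.5, 42.1 and 40.2 CPM with rPTH, against 139, 50.8 and 39.6 CPM in controls, so that its rPTH values lay just above control 3. A pair of genes named for this complex are not structural subunits. Atp5s had 3.45, 4.11 and 2.94 CPM with rPTH, against 4.25, 2.55 and 2.46 CPM in controls, and a log2 fold change of 0.18 ± 0.32, or 0.47 without control 1. Atp5sl, renamed Dmac2 and known as a complex I assembly factor in human cells, had 14.1, 14.3 and 14.4 CPM with rPTH, against 22.9, 18.1 and 13.8 CPM in controls.

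**Figure D3:**
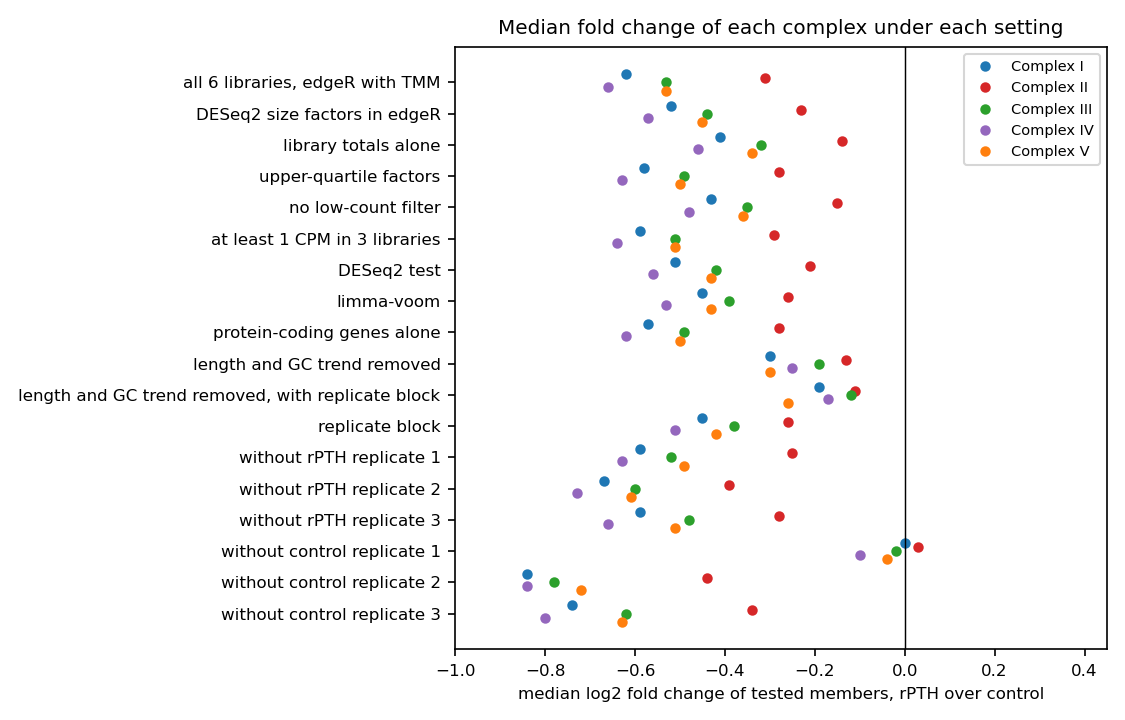
Median log2 fold change, rPTH over control, of the tested genes of each complex (colours) under each scaling, filter, test or left-out library (rows). The points lie between -0.84 and -0.11 in every row but the one without control 1, where they lie between -0.10 and 0.03.

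Levels can be compared between genes only per length, here as counts per kilobase of merged exons, scaled to the same sum in every library as TPM values are. This scaling uses no TMM factors, and for some genes the order of the group means differs from that in CPM. Atp5b, for example, averaged 1605 CPM with rPTH and 2022 CPM in controls. Atp5b was the highest of all 84 genes at 910 ± 87.1 with rPTH and 884 ± 91.9 in controls (SD, n = 3 each). Cox6a1 followed with 571 ± 59.2 with rPTH and 734 ± 267 in controls, then Atp5a1 with 576 ± 49.1 with rPTH and 531 ± 66.9 in controls, and these neighbours do not differ beyond their spread. Complex I genes ran lower. Its highest were Ndufa1, at 257 ± 24.3 with rPTH and 295 ± 80.9 in controls, and Ndufa4, at 251 ± 23 with rPTH and 258 ± 66.9 in controls, which do not differ beyond their spread and change places when the longest transcript is used. Its lowest was Ndufb2, at 4.19 ± 0.296 with rPTH and 4.53 ± 1.20 in controls. Within complex II, Sdhd stood at 274 ± 27.4 with rPTH and 249 ± 21.0 in controls, above Sdha at 128 ± 6.27 with rPTH and 106 ± 20.0 in controls. Merged exons of long annotated transcripts lower such values: with the longest transcript in their place, Atp5b averaged 1663 over the 6 libraries and Cox4i1 617, against 897 and 363 with merged exons.

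**Figure D4:**
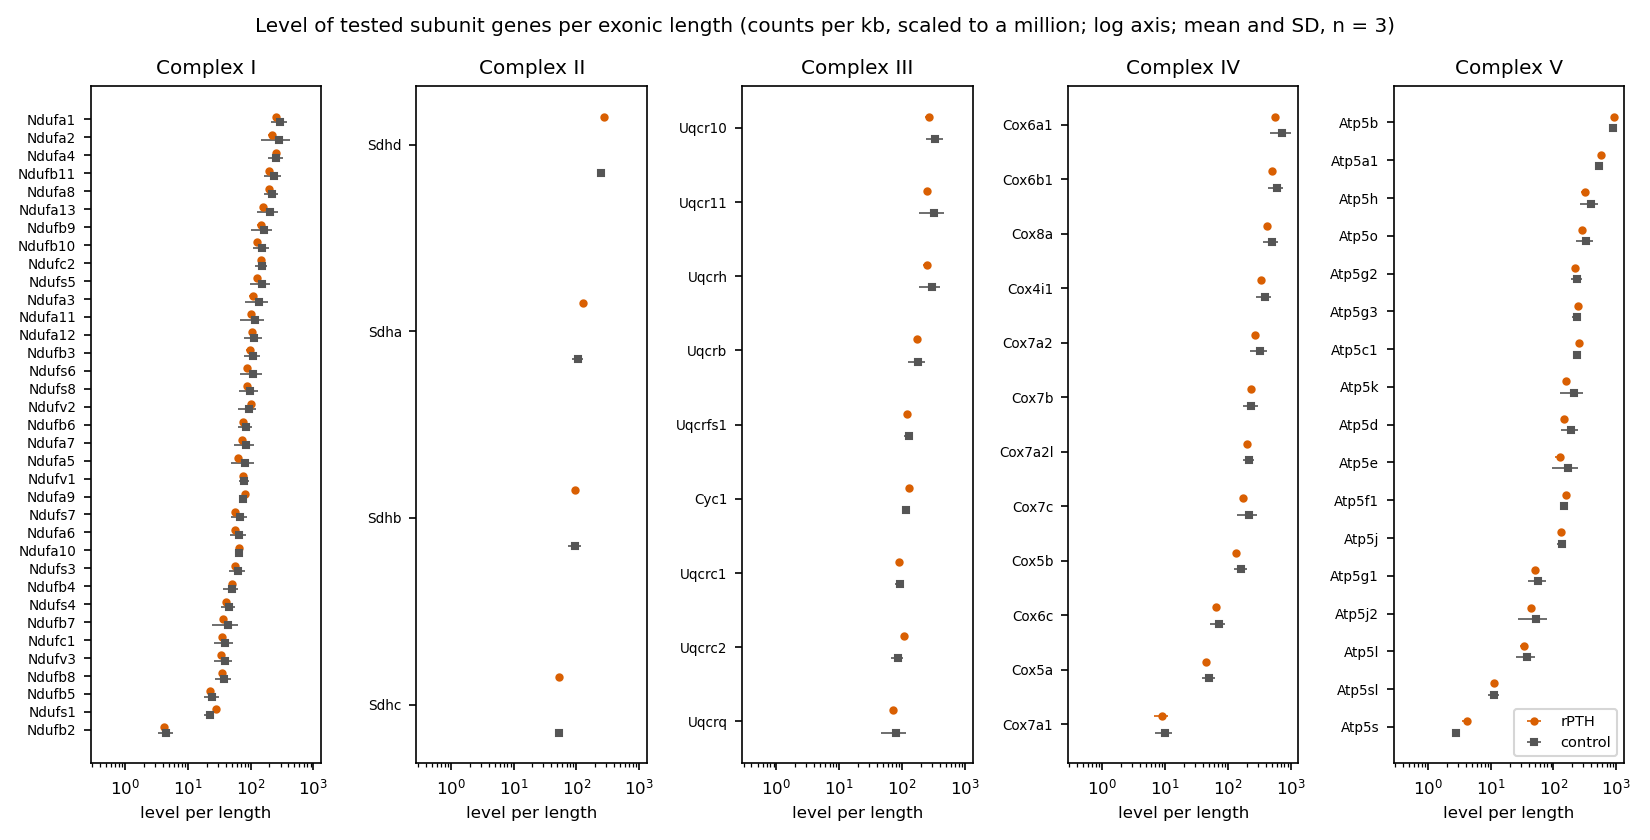
Level of 77 of the 78 tested genes per exonic length (log axis, counts per kilobase scaled to the same sum in every library), as mean and SD of 3 libraries, with rPTH (orange circles) above control (grey squares). Atp5b has the highest level and Atp5s the lowest, and the error bars of the controls are wider than those of rPTH for most genes.

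Subunit genes are short, and their fold changes were related to length. The median merged exonic length was 1737 bases for the 78 tested genes and 4466 bases for the 12500 tested protein-coding genes. Across the 78 genes the log2 fold change had a Pearson correlation of 0.47 and a Spearman correlation of 0.52 with the logarithm of length, and of -0.30 by both measures with GC content. Without control 1 the correlations with length were 0.29 and 0.36. These points share their libraries, so the values are a description. Among genes under 1 kb the median log2 fold change was -0.70 over 18 subunit genes and -0.60 over all 278 protein-coding genes. From 1 to 2 kb it was -0.68 over 29 subunit genes and -0.39 over 1319 genes, and at 3 kb and over it was -0.44 over 19 subunit genes and 0.07 over 9002 genes. Without control 1 the medians of the subunit genes lay between -0.08 and 0.04 in the 4 length classes. After removal of each library's own trend with length and GC content, the median over the 78 genes was -0.28, with 72 below 0, and the Pearson correlation of their fold changes turned to -0.48 with length and 0.48 with GC content.

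**Figure D5:**
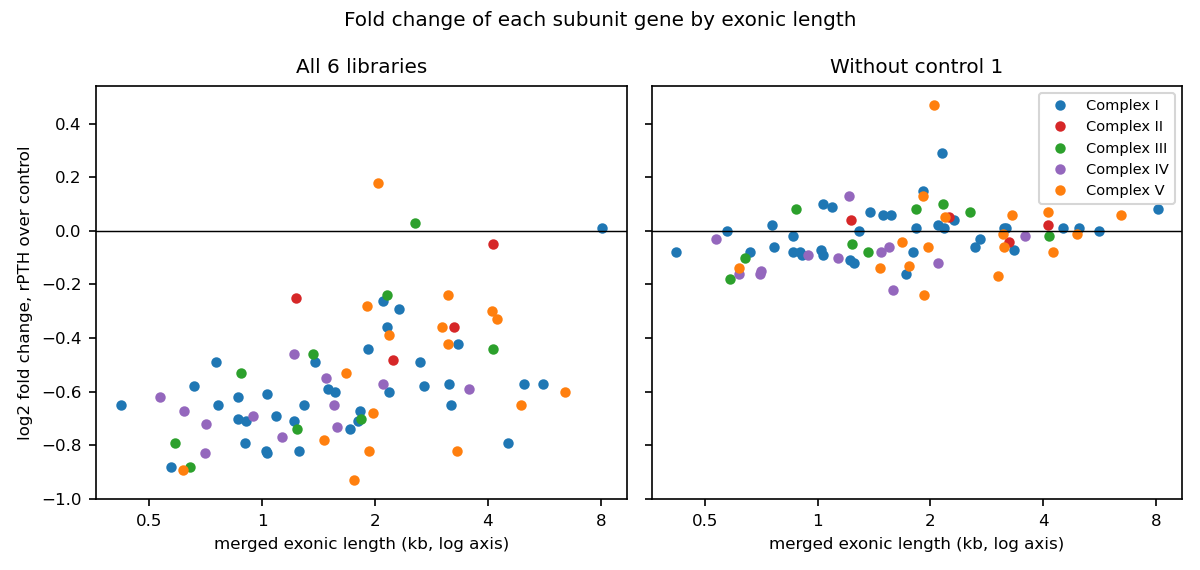
Log2 fold change, rPTH over control, of each tested subunit gene (point, coloured by complex) against its merged exonic length (log axis), with all 6 libraries on the left and without control 1 on the right. On the left 75 of 78 points lie below 0 and longer genes tend to lie nearer 0 (Spearman correlation 0.52), and on the right the points lie around 0, from -0.24 to 0.47.

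Ribosomal protein and pseudogene transcripts also had their highest sums in control 1. The cytosolic ribosomal protein genes summed to 48797, 56258 and 49133 CPM with rPTH, against 135901, 56495 and 48779 CPM in controls, and all 84 that were tested had a log2 fold change below 0. Processed pseudogenes summed to 73877, 82603 and 73253 CPM with rPTH, against 161616, 80735 and 101121 CPM in controls. Osteoblast and stromal markers, of which all 20 were detected and Ibsp, Bglap, Dcn and Lum lay at or near 0, went the other way and summed to 2242 to 3547 CPM with rPTH, against 1719 to 1921 CPM in controls. The part of these in the lower subunit levels was not tested. The subunit ratio of rPTH to the mean of control 2 and control 3 was 0.944 to 1.02 over the 5 complexes.

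Transcripts of the subunits that mitochondrial DNA encodes had another order of libraries. The 13 genes summed to 27713, 9799 and 24183 CPM with rPTH, against 9685, 18308 and 26002 CPM in controls. Control 1 and rPTH 2 were the low libraries here, while control 1 was the high one for nuclear subunits. With edgeR 12 of the 13 were higher with rPTH in fold change, the median log2 value was 0.23, and 0 had an unadjusted p under 0.05. Without control 1 the median was -0.09.

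Assembly factors insert cofactors and join subunits without staying in the finished complex. The list for complex V also holds Usmg5 and Atpif1, which are not factors of this kind. Their log2 fold changes were -0.43 and -0.64, and both are included in the counts and medians here. Of 52 listed, 49 were tested and 41 had a log2 fold change below 0, beside 58.5% of all tested genes. With edgeR on all libraries 0 passed the test, or had an unadjusted p under 0.05. Their median was -0.31, and 0.03 without control 1. In the edgeR fit without control 1, only Ndufaf7, Uqcc2 and Uqcc3 of the 49 reached an unadjusted p under 0.05. At that level 4.46% of all tested genes were higher with rPTH and 7.95% lower in the same fit. Ndufaf7 and Uqcc2 were higher with rPTH there, both at a log2 fold change of 0.27, and Uqcc3 was lower. No tested gene passed after adjustment in that fit. Uqcc3, which acts in complex III assembly, had 12.3, 12.7 and 12.4 CPM with rPTH, against 37.6, 15.1 and 15.1 CPM in controls, so that the groups did not overlap, and its log2 fold change was -0.28 without control 1. Cox17, a copper chaperone for complex IV, had 3.74, 2.23 and 3.89 CPM with rPTH, against 6.12, 4.14 and 5.10 CPM in controls, also without overlap. Coa5, another complex IV factor, lay the other way, with 119, 129 and 122 CPM with rPTH, against 91.1, 108 and 111 CPM in controls. In all, 2 of the 49 were wholly lower with rPTH, beside 8.45% of tested genes. Another 2, Coa5 and Acad9, were wholly higher, beside 8.35%. Cycs, the cytochrome c of somatic cells, had 169, 182 and 147 CPM with rPTH, against 314, 165 and 144 CPM in controls. The 13 TCA cycle genes had a median log2 fold change of -0.08, with 8 below 0. With edgeR on all libraries 0 of them had an unadjusted p under 0.05. Their median was 0.10 without control 1. In that fit Sucla2 alone had an unadjusted p under 0.05, at a log2 fold change of 0.32, beside 4.46% of all tested genes higher. Citrate synthase, Cs, had 443, 458 and 454 CPM with rPTH, against 486, 485 and 460 CPM in controls.

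Many respiratory chain genes have processed pseudogenes, inserted copies of their mRNA, and reads can be split between gene and copy. With at least 90% identity over at least 50% of the copy, 56 annotated pseudogenes matched 24 of the subunit genes. The 45 that were tested all had a log2 fold change below 0, with a median of -1.02, and of -1.06 without control 1. An unadjusted p under 0.05 was reached by 17 of the 45, lower with rPTH, beside 5.89% of all tested genes and 29.1% of the 2684 tested processed pseudogenes, and 0 passed after adjustment with edgeR. Of those 2684 processed pseudogenes 2429 had a log2 fold change below 0, with a median of -0.82. The 56 pseudogenes that matched subunit genes summed to 508, 635 and 540 CPM with rPTH, against 1508, 583 and 723 CPM in controls. In this sum control 2 lay between the rPTH libraries, while control 3 lay above them all. Control 3 also had the most genes with a count, 31346, against 25880 to 29229 in the other libraries. The part of control 3 in the median without control 1 was not tested. For 11 genes the copies held over 10% as many counts as the gene itself, up to 276% for Atp5l, 89.8% for Ndufb4, 69.7% for Ndufs5, 67% for Cox7c and 59.8% for Ndufa12, and the levels of these genes are uncertain to that extent.

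Exons of 28 subunit genes also overlap another annotated gene, mostly on the opposite strand. Among those that were tested, 13 had a neighbour with over 10% as many counts. No source used here states whether counting used the strand, so reads from the pairs Ndufb11 and Rbm10, Ndufs6 and Mrpl36, or Atp5j and Gabpa cannot be told apart within the shared bases. These are 117, 30 and 397 bases long. Ndufs1, the core gene with a fold change near 0, shares 9 bases with Eef1b2.

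In the authors' deposited table, 78 of the 84 genes had a log2 fold change below 0, with a median of -0.40, and 0 of the 78 with an adjusted p were under 0.05. The authors' deposited table gives these genes adjusted p-values between 0.482 and 0.938, and calls 11 genes over the whole transcriptome at that threshold.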

How the data were processed

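RNA-seq counts of 49568 genes in 6 MC/9 libraries, 3 rPTH and 3 control, were used as whole-number counts that the authors deposited. The tools named, per the submitters' processing notes and with no role, are R 3.3.0, DESeq2 1.12.4, featureCounts, Subread 1.5.0p3, STAR 2.5.2b and Trimmomatic 0.36, and the builds are mm9 and GRCm38.p5. The authors also deposited a normalized signal (counts divided by 1 size factor per library, 0.7739 to 1.236), regularised log2 values, and a comparison table with log2 fold changes, a Wald score and p-values. The signal was read for its size factors and the regularised log2 values for their unit alone.

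Groups were compared with edgeR 4.0.16 in R 4.3.3 on all 6 libraries (robust quasi-likelihood test, TMM factors, filterByExpr with a minimum count of 10, Benjamini-Hochberg over 16696 genes, threshold 0.05). The fit was checked on simulated data. DESeq2 1.42.0, limma 3.58.1, other scalings and filters, protein-coding genes alone, length and GC trends (mgcv 1.9.3), a replicate block and leaving out each library were alternatives. Lists and complexes are described by counts and medians, without a test. Summed CPM used TMM factors. Lengths, coordinates and gene classes come from GENCODE on GRCm38, matched by symbol for 47240 genes and by synonym for 447. Pseudogene copies were found with blastn 2.17.0.

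The members, lists and motifs were chosen with earlier results of these data known. Values are given for core subunits except 1 gene that is not reported here, isoform groups, the highest level and smallest p of each complex, the 5 smallest p in each direction at a mean of at least 1 CPM, genes of opposite sign and 4 genes whose name and complex differ; Uqcr11, Ndufa2, Ndufa1 and Ndufb2, and the assembly factors and neighbours with values, were picked after their values were seen. Within a group every 2 libraries differed beyond sampling noise, with a chi-square per degree of freedom of 18.5 to 237.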

Additional observations from a re-analysis of the deposited data

How the results depend on the processing

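No setting gave a subunit gene an adjusted p under 0.05. Genes called over the whole table numbered 0 with edgeR, and 8 with DESeq2 when its filter was set at 0.05, an alternative chosen after seeing the data. Without the low-count filter 2 subunit genes, Atp5d and Cox6a2, were lower at an unadjusted p under 0.05, beside 4.23% of genes. The log2 fold change of Sdha was 0.01 with DESeq2 size factors, 0.09 with library totals, 0.09 without the filter and 0.03 with DESeq2 at either filter. With each library's length and GC trend removed it was -0.27 for Ndufs1, 0.07 for Sdhd, 0.11 for Cyc1, 0.09 for Cox7a1 and 0.01 for Cox8a. With the replicate block added to that, it was -0.22 for Ndufs1, 0.11 for Sdhd, 0.11 for Cyc1, 0.03 for Cox6a1, 0.19 for Cox7a1, 0.12 for Cox8a and 0.02 for Uqcr10, and the median over the 78 genes was -0.19. The cause was not tested.

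No label says that replicate numbers mark pairs. Deviations of same-numbered libraries from their group means correlated at -0.127, -0.339 and 0.134. Deviations within a group of 3 libraries depend on each other, so these values cannot decide whether libraries were paired. The replicate block alone gave a median of -0.45 over the subunit genes with 75 below 0, and 525 genes at an unadjusted p under 0.05, against 1314 without it.

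With 1 library left out at a time, the number of subunit genes at an unadjusted p under 0.05 was 0 to 27 lower (27 without control 3 and 2 without control 2, beside 5.7% and 10.8% of tested genes) and 0 to 1 higher, and 45 to 77 genes were below 0. The median log2 fold change ran from -0.82 to -0.03 over all subunit genes, -0.84 to 0.00 for complex I, -0.44 to 0.03 for II, -0.84 to -0.10 for IV and -0.72 to -0.04 for V. The log2 ratio of mean summed CPM ran from -0.71 to -0.03 for all genes, -0.82 to 0.01 for complex I, -0.36 to 0.03 for II, -0.73 to 0.00 for III and -0.93 to -0.08 for IV. In each case the upper end is without control 1. By gene the log2 fold change ran from -0.04 to 0.08 for Ndufs1, -0.09 to 0.09 for Uqcrc2, -0.83 to 0.01 for Ndufs3, -0.86 to 0.00 for Ndufs8, -0.64 to 0.29 for Ndufv2, -0.70 to 0.07 for Ndufa4, -0.08 to 0.02 for Sdha, -0.69 to 0.05 for Sdhb, -0.36 to 0.04 for Sdhd, -0.35 to 0.10 for Cyc1, -0.47 to 0.13 for Atp5c1, -0.69 to 0.13 for Cox7b and -0.56 to 0.05 for Atp5g3. The difference in share ran from -0.239 to 0.332 percentage points for Cox7a1, -1.94 to -0.775 for Atp5g2 and 1.38 to 2.83 for Atp5g3.

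Depth limits Cox4i2, Cox6b2, Cox7b2, Cox8b and Cox8c, at 2 counts or fewer per library. Counting Ndufa4 with complex IV and leaving out Atp5s, Atp5sl and Cox7a2l gave medians of -0.62 for complex I, -0.66 for IV and -0.60 for V.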
